A study of Homo sapiens with 4 samples.

Results

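PLAC8 (ENSG00000145287), a small cysteine-rich protein also called onzin, was examined in NUGC3, an established human stomach cancer cell line with and without a knockdown of MYC. PLAC8 is 1 gene of the 53777 Ensembl genes in the deposited table. It was chosen by its log2 change between the groups, the lowest of the 9238 protein-coding genes with a mean of at least 5 FPKM (fragments per kilobase of transcript and per 1e+06 mapped fragments), so the size of its change is given as a description with no test. The study compared 2 libraries of wild-type cells with 2 libraries of MYC knockdown cells, all from total RNA of the same line. The means of the knockdown and its duration are not stated in the labels. Nothing in the labels says that replicates came from separate cultures, so any p-value measures only the spread between these libraries, which may be technical.

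In mice, onzin has been described as a gene that MYC represses and as a survival factor acting through AKT and MDM2. The protein has also been tied to the fusion of autophagosomes with lysosomes in pancreatic cancer cells, to an ERK-dependent epithelial-mesenchymal transition in colon cancer, and to C/EBP beta in brown fat. White blood cells, plasmacytoid dendritic cells among them, are known for high PLAC8 levels. These roles set the gene lists described here. They are background and were not measured in this study.

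PLAC8 lies on the minus strand of chromosome 4, from 83090048 to 83137075 in GENCODE release 29 on GRCh38. The sources used here do not give the build behind the deposited table. GENCODE lists 6 transcripts of the gene, 5 of them protein-coding, with lengths from 364 to 2253 bases. The deposited value is 1 number per gene and does not separate them. RefSeq gives PLAC8 more than 1 transcription start, and the windows around 2 of them, each 250 bases before to 50 bases after the start, are shown because MYC with its partner MAX binds E-box letters. Capitals mark the E-box letters CANNTG, read 5′ to 3′ on the gene's strand. The upstream start is at chr4:83114680-83114979 and the inner start at chr4:83109840-83110139, minus strand, GRCh38.p14.
PLAC8 upstream start: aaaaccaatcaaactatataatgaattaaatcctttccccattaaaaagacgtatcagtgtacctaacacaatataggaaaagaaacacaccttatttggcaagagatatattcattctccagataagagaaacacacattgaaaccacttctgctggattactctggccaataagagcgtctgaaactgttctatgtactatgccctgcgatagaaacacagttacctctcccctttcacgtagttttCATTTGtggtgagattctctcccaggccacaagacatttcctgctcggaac
PLAC8 inner start: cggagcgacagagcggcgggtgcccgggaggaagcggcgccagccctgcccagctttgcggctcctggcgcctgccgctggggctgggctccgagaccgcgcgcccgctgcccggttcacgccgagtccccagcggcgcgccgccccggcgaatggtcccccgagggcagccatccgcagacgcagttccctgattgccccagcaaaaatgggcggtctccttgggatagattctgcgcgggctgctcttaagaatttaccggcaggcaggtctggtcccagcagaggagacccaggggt

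The letters CACGTG, the E-box that MYC and MAX prefer, were in neither window, searched on both strands. They occurred in 7.3% of the 35116 RefSeq promoter windows of this length. The looser CANNTG, which includes CACGTG and reads alike on both strands, occurred once, as CATTTG across the upstream start (bases −1 to 5), and in 68.7% of all windows. The windows differed in base composition, with 39.0% G and C and 5 CpG pairs at the upstream start against 70.7% and 31 at the inner start. The medians over all windows were 58.7% and 14 CpG pairs. A letter match is a description only, and binding of MYC was not measured here.

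In the wild-type cells PLAC8 measured 139.77 FPKM in replicate 1 and 136.46 FPKM in replicate 2. In the MYC knockdown cells it measured 29.86 FPKM in replicate 1 and 19.82 FPKM in replicate 2. Both knockdown libraries lay far below both wild-type libraries, and the groups did not overlap. The mean was 138 ± 2.34 FPKM in wild type and 24.8 ± 7.10 FPKM in the knockdown (SD, n = 2 per group), 5.56-fold lower. MYC knockdown replicate 1 held 21.6% and MYC knockdown replicate 2 held 14.4% of the wild-type mean. On the log2(FPKM + 1) scale, used for every log2 value here, the difference from wild type was −2.17 in the first and −2.74 in the second, and −2.46 on average. PLAC8 thus kept a measurable level in both knockdown libraries.

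The gene went from the upper levels of the line to the middle. In wild type, 6.57% and 6.72% of the 9238 genes had a higher FPKM than PLAC8. In MYC knockdown replicates 1 and 2 it was 37.9% and 51.2%. Among 506 of these genes with a wild-type mean between 100 and 200 FPKM, the median log2 change was −0.10 and 6 genes, PLAC8 among them, were at −1 or lower. After PLAC8 the lowest of them was SERPINA3, a secreted protease inhibitor, at 103.77 and 106.53 FPKM in the wild-type and 23.26 and 61.03 FPKM in the knockdown libraries, a log2 change of −1.45. HMGCS1, an enzyme of cholesterol synthesis, came after it at −1.21. SERPINA3 and HMGCS1 are named for their place in this order, which was seen before they were chosen. PLAC8 is the lowest of the 506 genes because it was chosen as the lowest of all 9238.

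**Figure D1:**
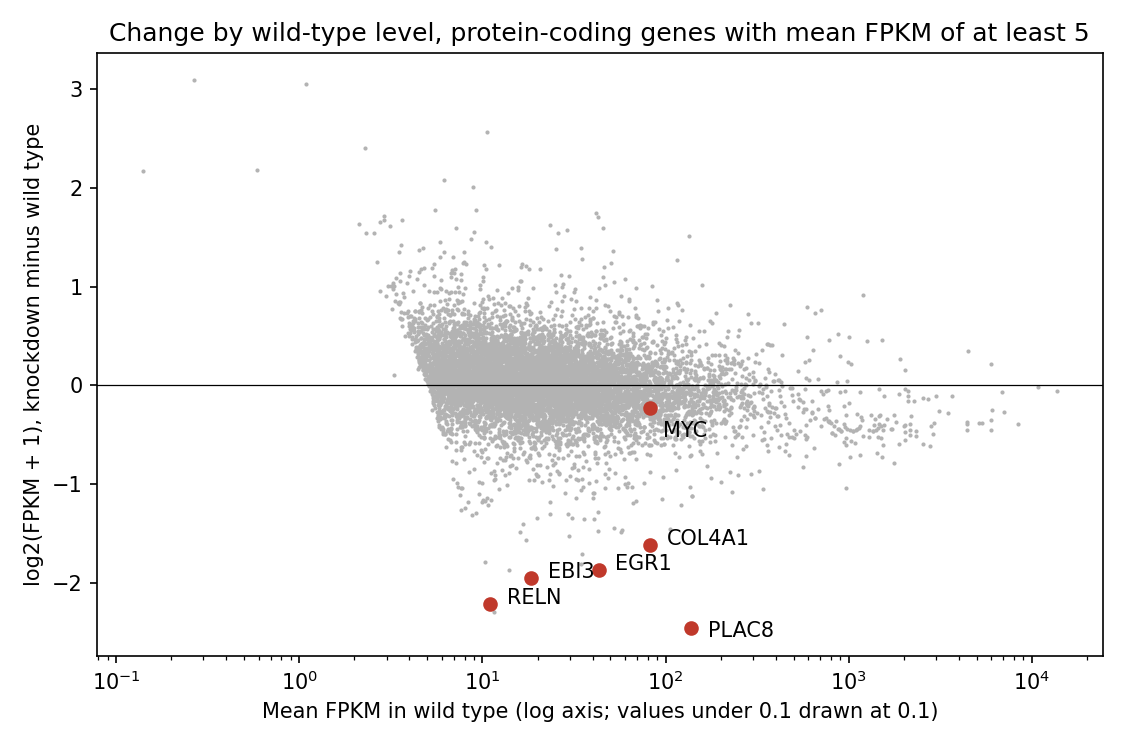
Each point is 1 of 9238 protein-coding genes, with its mean FPKM in wild type on a log axis and the knockdown minus wild-type difference of log2(FPKM + 1). PLAC8, which was chosen as the lowest of these genes, is at −2.46, while MYC is at −0.23.

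The place of PLAC8 in the order of changes depended on the scale and on the libraries used. Without MYC knockdown replicate 2 it ranked 6, and without wild type replicate 1 it ranked 2. With the pseudocount of 1, the next genes were PIGY at −2.30, RELN at −2.21 and EBI3 at −1.95. PIGY, a subunit of the enzyme that starts GPI anchors, is listed at 0 in 3 libraries and at 23.09 FPKM in wild type replicate 2, so its place rests on that library. RELN, the secreted glycoprotein reelin, went from 10.76 and 11.23 FPKM in the wild-type libraries to 2.16 and 1.12 FPKM in the knockdown libraries, 6.70-fold lower in mean FPKM and so further down in ratio than PLAC8. With a pseudocount of 0.1, PLAC8 ranked 3, behind PIGY and RELN, at −2.50. Against the wild-type mean, PLAC8 had the lowest difference of all 9238 genes in MYC knockdown replicate 2, and in the other knockdown library it ranked 6, behind MMP9, SERPINB2, PIGY, NDRG1 and SCD. The mean dropped by 113 FPKM, and by this difference PLAC8 ranked 138. A log2 change of −2 or lower in both knockdown libraries was found for 2 of the 9238 genes, PLAC8 and PIGY.

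The knockdown libraries differed in PLAC8 by 0.57 on the log2 scale, and 7.80% of the 9238 genes differed by more between them. The wild-type libraries differed by 0.03, with 69.3% of genes differing by more. The median absolute difference over these genes was 0.18 for the knockdown pair and 0.06 for the wild-type pair. The gap between the knockdown libraries is therefore above that of most genes, and small beside the distance of each from wild type. Depth is not given with FPKM. It was estimated from the spacing of low values. The fitted depth was scaled down on the assumption that 1 fragment is a larger step than the one fitted, which was not tested. On that assumption the libraries hold about 29.7, 23.7, 21.7 and 22.7 (each times 1e+06) fragments. Without it, the depths and the fragment counts below would be higher. At that depth, and if all fragments came from the transcript of 1447 bases, 19.82 FPKM would be about 516 fragments and 139.77 FPKM about 4795. For these counts the transcript length was shortened by 300 and 290 bases, values fitted together with the depth.

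**Figure D2:**
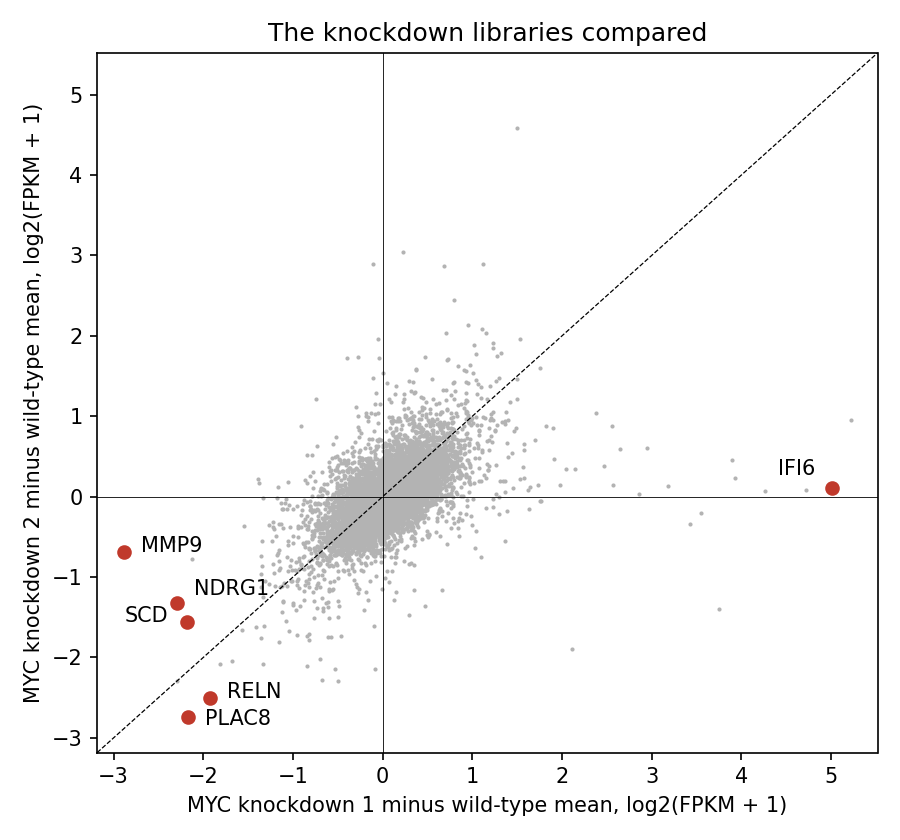
Each point is 1 of 9238 genes, with its difference from the wild-type mean in MYC knockdown replicate 1 (x) and MYC knockdown replicate 2 (y), both in log2(FPKM + 1), and a dashed line of equal difference. PLAC8 lies low on both axes at −2.17 and −2.74, while MMP9 is low mainly on the x axis and IFI6 is high on the x axis alone.

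For MYC itself the difference was small. It measured 82.88 and 82.01 FPKM without and 64.98 and 75.81 FPKM with the knockdown, a log2 change of −0.23 (standard error 0.10; limma adjusted p = 0.237), which missed the threshold. The knockdown library with the lower PLAC8 was the one with the higher MYC. With 2 knockdown libraries, no relation between MYC and PLAC8 levels can be tested.

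The genes whose 4-library profile was most like that of PLAC8 were found by Euclidean distance, each gene taken as log2(FPKM + 1) minus its wild-type mean. The median distance over 9237 genes was 3.54, and the closest were RELN at 0.35, EBI3 at 0.75, EGR1 at 0.85, ZNF571 at 1.07, SCD at 1.19 and COL4A1 at 1.24. A small distance needs a change nearly as large as that of PLAC8, so these genes are among the lowest by construction. EBI3, a cytokine subunit, stood at 18.22, 18.63, 4.53 and 3.58 FPKM, the wild-type pair first and replicate 1 before replicate 2 in each pair. EGR1, an immediate early transcription factor, stood at 42.80, 43.67, 12.76 and 9.69 FPKM in that order. In both, as in PLAC8 and RELN, MYC knockdown replicate 2 was the lower of the knockdown pair. The distance takes in both knockdown libraries, so it favours genes that share this order.

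ZNF571, a zinc finger gene, also had its lowest value in MYC knockdown replicate 2, at 33.62, 36.50, 13.32 and 7.51 FPKM. SCD, the desaturase that makes monounsaturated fatty acids, had the other order within the knockdown pair, at 13.70, 14.23, 2.29 and 4.09 FPKM. COL4A1, a collagen chain of basement membranes, was nearly alike in the knockdown libraries, at 82.78, 81.28, 27.02 and 25.39 FPKM. Of these 6 genes COL4A1 was the closest to PLAC8 in wild-type level, and its ratio of wild-type to knockdown mean was 3.13 against 5.56 for PLAC8.

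**Figure D3:**
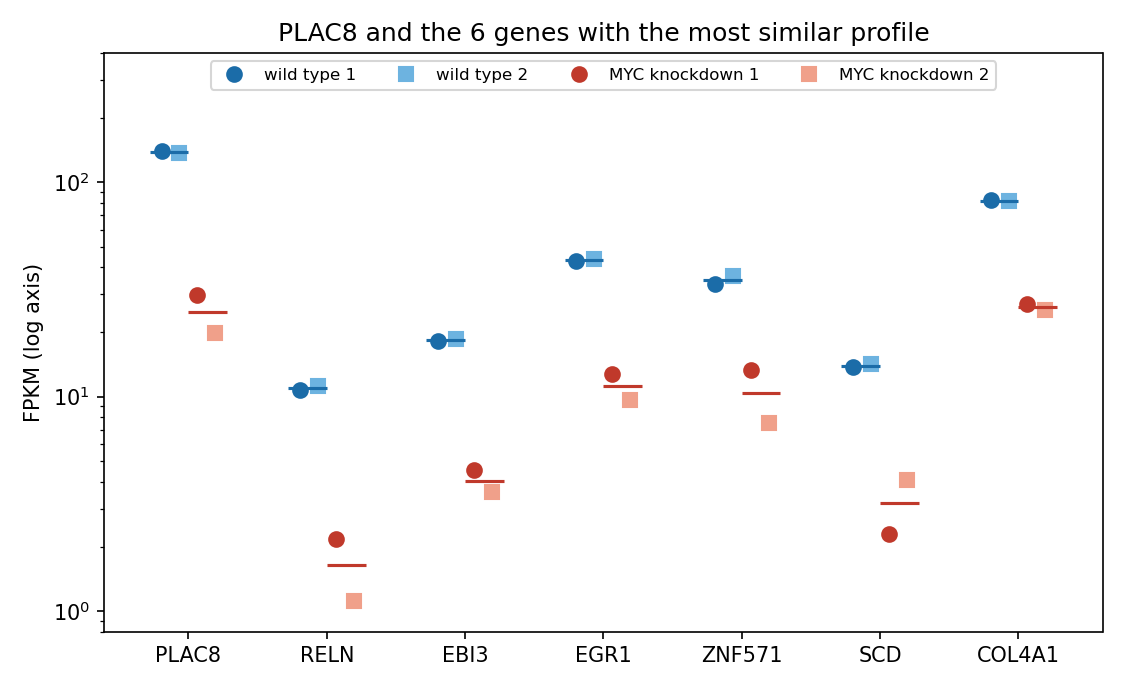
FPKM on a log axis for PLAC8 and the 6 genes of smallest distance to it, with 1 point per library and a short line at each group mean. In each of the 7 genes the wild-type points lie together and both knockdown points lie below them, with PLAC8 dropping from about 138 to 24.8 FPKM.

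PLAC8 was read against 8 gene lists, with 101 members besides PLAC8, of which 87 passed the filter of at least 1 FPKM in at least 2 libraries. Limma called 0 of these members at an adjusted p under 0.05, and 0% of all 12953 genes tested, while 3354 genes had an unadjusted p under 0.05. At an adjusted p under 0.10 limma called 11 members and 10.4% of all genes tested, 4.91% as lower and 5.5% as higher in the knockdown. Groups did not overlap for 54 members and for 58.6% of all genes, 25.2% as lower and 33.4% as higher. Below, "passed 0.10" refers to limma with Benjamini-Hochberg adjustment over all genes. With no filter on low values, or without either wild-type library, 0 members passed 0.10. Some genes are in more than 1 list.

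The other members of the PLAC8 domain family were far below PLAC8 in level per length. CNFN, cornifelin of the skin's cornified envelope, stood at 2.01, 1.68, 2.60 and 2.75 FPKM in the library order used above. Its groups did not overlap and lay the other way round from those of PLAC8, with a log2 change of 0.37 (standard error 0.16) that did not pass 0.10 (limma adjusted p = 0.226). PLAC8L1 was at 0.19 FPKM in wild type replicate 1 and listed at 0 in the other libraries, and was not tested.

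None of the 14 genes listed around PLAC8 on chromosome 4 had a difference near that of PLAC8. This follows largely from the choice of PLAC8 as the lowest of 9238 genes. Of these, 3 genes, PLAC8 among them, were at −2 or lower. The nearest listed gene on 1 side is COPS4, a subunit of the COP9 signalosome, 14.2 kb away. On the other side it is COQ2, an enzyme of coenzyme Q synthesis, 124.5 kb away. COPS4 stood at 46.04, 44.16, 44.63 and 39.23 FPKM and COQ2 at 8.72, 8.19, 10.22 and 7.65 FPKM, with groups that overlapped in both. Of the 14 neighbours, with gaps of up to 715.5 kb to PLAC8, the log2 changes ran from −0.42 to 0.90 with a median of −0.03, against 0.04 over all genes tested. Passing 0.10 were HNRNPD, an RNA-binding protein, lower at −0.42, and TMEM150C, a membrane protein, higher at 0.90 from 1.41 and 1.43 to 3.88 and 3.17 FPKM. Over all genes tested, 4.91% passed as lower and 5.5% as higher. LIN54, of the DREAM complex of cell cycle gene control, was at 0.24, and HPSE, the heparan sulfate-cutting heparanase, at −0.17. GPAT3, an enzyme of triglyceride synthesis, was at 2.85, 2.50, 2.54 and 7.96 FPKM, high in MYC knockdown replicate 2 alone. The remaining neighbours ENOPH1, HNRNPDL, SEC31A, THAP9, HELQ, MRPS18C and ABRAXAS1 lay between −0.36 and 0.17.

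**Figure D4:**
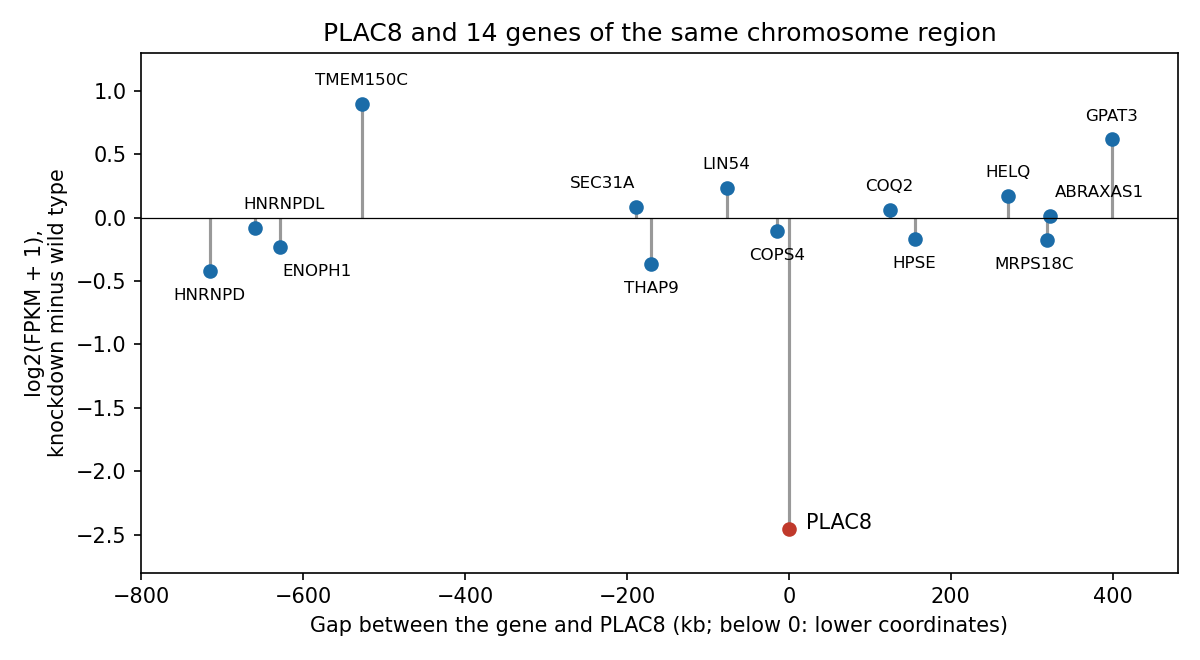
The log2(FPKM + 1) difference, knockdown minus wild type, of PLAC8 and 14 genes of the same region against the gap between each gene and PLAC8 in kb (GENCODE release 29). PLAC8 is at −2.46, and the other genes lie between −0.42 and 0.90.

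Among genes of the AKT and MDM2 pathway described for onzin, 0 of 14 passed 0.10 (10.4% of all genes tested) and the median log2 change was 0.02. AKT1, the survival kinase, stood at 44.33, 44.84, 48.34 and 47.52 FPKM, and MDM2, a ubiquitin ligase, at 15.16, 15.62, 17.82 and 17.20 FPKM. In both, the knockdown values were slightly above the wild-type values, at 0.10 and 0.18. CDKN1A, the cell cycle inhibitor p21, was high in MYC knockdown replicate 2 alone, at 16.01, 17.67, 18 and 39.31 FPKM. The kinase AKT2 was at −0.26, PDPK1, which activates AKT, at 0.27, and RICTOR and MTOR, subunits of mTOR complexes, at 0.12 and −0.01. MDM4 was at 0.08, and the stress-response genes BBC3, SESN1 and SESN2 were at −0.24, −0.05 and −0.15.

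Other genes described as repressed by MYC lay on both sides of wild type. Of 14 such genes besides PLAC8, 11 were tested, and the median was 0.21. Groups did not overlap for 4 with the knockdown lower and for 5 with it higher (25.2% and 33.4% over all genes). At 0.10, 2 passed as lower and 0 as higher, against 4.91% and 5.5% of all genes tested. Those 2 were NDRG1, a gene of differentiation and low oxygen, and GADD45A, a stress-response gene. NDRG1 stood at 34.91, 34.03, 6.25 and 13.17 FPKM, a log2 change of −1.81 (standard error 0.33; limma adjusted p = 0.0709). GADD45A stood at 34.21, 30.93, 17.60 and 15.21 FPKM, a log2 change of −0.95 (standard error 0.11; limma adjusted p = 0.0556). THBS1, the matrix protein thrombospondin, was higher in both knockdown libraries, at 86.63, 82.56, 124.50 and 234.90 FPKM, and did not pass 0.10. The cell cycle inhibitors CDKN1B, CDKN1C and CDKN2B were at 0.25, 0.21 and 0.22, and FTH1, ferritin heavy chain, at 0.35. CDKN1A, whose values are given above, was at 0.64. DDIT3, NDRG2 and CLU were at −0.32, −0.25 and −0.23. COL1A2 is listed at 0 in all 4 libraries, and PDGFRB and CEBPA stayed under 1 FPKM.

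Genes of autophagosome-lysosome fusion were more often higher than lower in the knockdown. All 25 were tested, and 4 passed 0.10 as higher and 0 as lower (5.5% and 4.91% of all genes tested). In 17 the groups did not overlap with the knockdown higher, against 0 with it lower (33.4% and 25.2% over all genes). The median log2 change was 0.28, and it was alike in the knockdown libraries, at 0.28 in replicate 1 and 0.27 in replicate 2. SQSTM1, or p62, a receptor that brings cargo to autophagosomes, measured 102.24, 104.88, 171.98 and 187.44 FPKM, a log2 change of 0.79. VAMP8, a SNARE of the fusion step, stood at 86.48, 84.22, 119.69 and 111.93 FPKM. LAMP2, a lysosomal membrane protein, stood at 87.14, 88.13, 122.52 and 153.39 FPKM. PLEKHM1, an adaptor of RAB7 at the lysosome, stood at 6.95, 5.64, 12.02 and 10.86 FPKM. Of the core fusion SNAREs, STX17 was at 0.28 and SNAP29 at 0.01, and RAB7A, the late endosome GTPase, was at 0.13. The tether subunits VPS11, VPS16, VPS18, VPS33A, VPS39 and VPS41 were between 0.25 and 0.51. ATG5 and ATG7, which lipidate LC3, were at 0.15 and 0.05. The 2 members below 0 were EPG5, a tether of the fusion step, at −0.20 and MAP1LC3B, LC3 itself, at −0.09. Members other than the 4 called were named with their values in view.

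C/EBP factors and brown fat partners of PLAC8 showed no common direction. Of 11 genes 6 were tested, and PPARG, the fat cell nuclear receptor, passed 0.10 as higher, at 12.38, 12.77, 19.55 and 26.68 FPKM, and did not with quantile normalization. Over all genes tested, 5.5% passed as higher. CEBPB, the C/EBP beta factor that PLAC8 is known to bind, stood at 33.38, 38.97, 47.34 and 37.64 FPKM, with groups that overlapped. CEBPD, CEBPG and CEBPZ were at 0.05, −0.26 and −0.07. PRDM16 and PPARGC1A, regulators of brown fat, stayed under 1 FPKM, and UCP1, its uncoupling protein, and CEBPE are listed at 0 in all 4 libraries.

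The genes tied to epithelial-mesenchymal transition and ERK were mixed. Of 12 genes 8 were tested, 1 passed 0.10 as lower and 1 as higher (4.91% and 5.5% of all genes tested). SNAI2, the transition factor Slug, stood at 6.70, 7.56, 14.66 and 20.63 FPKM, a log2 change of 1.18 (standard error 0.19; limma adjusted p = 0.0616). SNAI1, the factor Snail, stood at 1.28, 1.29, 0.23 and 0.16 FPKM, a log2 change of −0.94 (standard error 0.20; limma adjusted p = 0.0850). With a pseudocount of 0.1, SNAI1 no longer passed 0.10. ZEB1, tied to PLAC8 in colon cancer, and ZEB2 were at most 0.03 FPKM, TWIST1 is listed at 0 in all libraries, and the cadherin CDH2 was at most 0.21 FPKM. CDH1, epithelial cadherin, was at 0.30 and CDH3, placental cadherin, at −0.04, at 48.98, 47.95, 46.64 and 47.80 FPKM. VIM, vimentin, was high in MYC knockdown replicate 2 alone, at 8.32 FPKM against at most 1.26 FPKM in the other libraries. DUSP6, the ERK phosphatase, stood at 84.96, 87.49, 68.66 and 116.30 FPKM, on either side of wild type in the knockdown libraries, and the kinase MAPK3 was at 0.00.

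Interferon-stimulated genes were high in MYC knockdown replicate 1 and not in MYC knockdown replicate 2. The FPKM of the 12 genes listed summed to 136.64 and 129.02 in the wild-type libraries, and to 1271.49 in replicate 1 and 150.95 in replicate 2 of the knockdown. Among them were IFI6, ISG15, MX1, OAS1, IFIT1, IFIT2, IFIT3, IFI44, IFI44L, IFI27 and RSAD2. IFI6, an interferon-induced mitochondrial protein, stood at 11.14, 10.16, 374.77 and 11.59 FPKM. MX1, an antiviral GTPase, measured 6.82, 5.47, 107 and 7.35 FPKM. Limma called 0 of the 10 tested at 0.10, against 10.4% of all genes tested. PLAC8 was low in both knockdown libraries, and lowest in the one whose interferon-stimulated genes were near wild type. A relation between PLAC8 and these genes was not tested, and cannot be with 2 knockdown libraries.

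**Figure D5:**
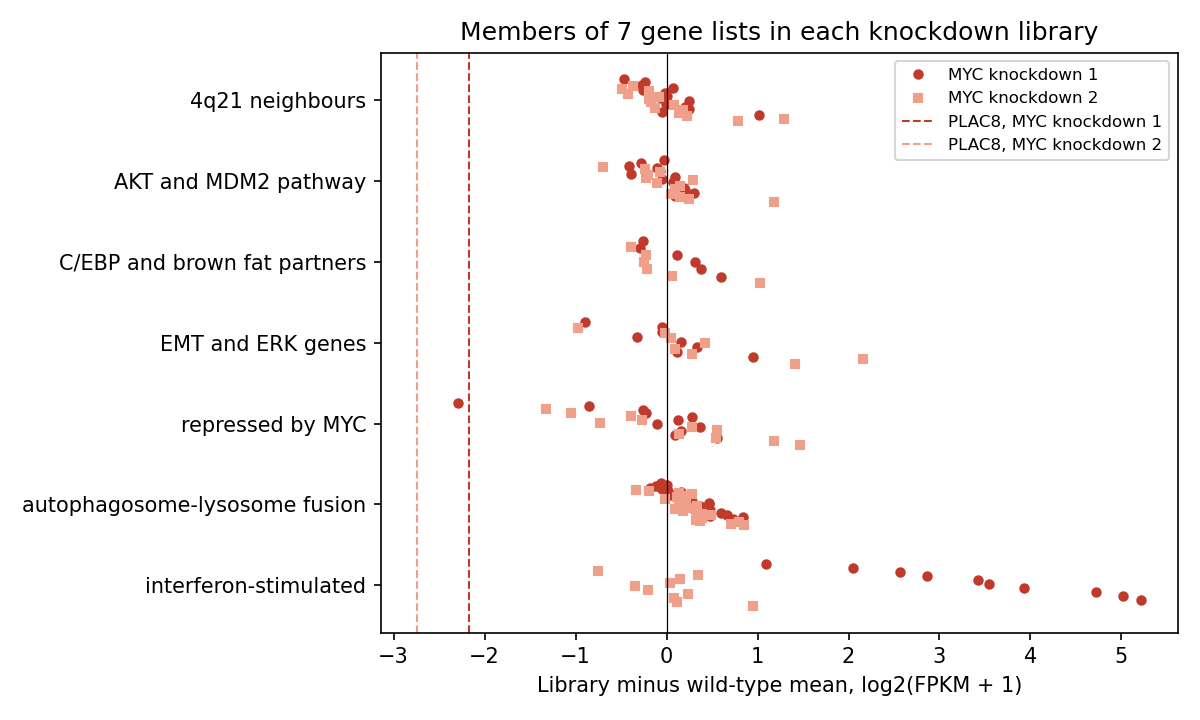
Members of 7 gene lists that were tested, each as its difference from the wild-type mean in log2(FPKM + 1), with circles for MYC knockdown replicate 1 and squares for MYC knockdown replicate 2; dashed lines mark PLAC8 in each library. Most members lie near 0, NDRG1 of the list repressed by MYC reaches −2.29 in MYC knockdown replicate 1, and interferon-stimulated genes spread to the right in that library.

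The markers of white blood cells were at or near 0. Of 12 markers, PTPRC, MS4A1, FCGR3A, CLEC4C and CD48 are listed at 0 in all 4 libraries, and the highest value of any was 0.88 FPKM, for CD14. Their summed FPKM was 1.59 and 1.27 in wild type and 1.06 and 1.01 in the knockdown. Of 6 fibroblast and endothelial markers 5 were matched, 3 of them at 0 throughout, with sums from 2.98 to 8.14 FPKM. The 6 epithelial markers EPCAM, KRT8, KRT18, KRT19, CDH1 and CLDN4 summed to between 5124.78 and 5986.39 FPKM. Of 8 stomach and gut markers, 7 (TFF1, TFF2, MUC5AC, MUC6, GKN1, CLDN18 and VIL1) stayed under 1 FPKM, and CDX2 was between 1.36 and 2.99 FPKM. The line thus had epithelial markers and almost none of the defining stomach markers. In bulk RNA, fewer cells with PLAC8 and less PLAC8 RNA per cell cannot be told apart.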

How the data were processed

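RNA-seq libraries of NUGC3 cells (4 in all) were analysed, with group and replicate taken from the sample titles. STAR and RSEM made the values, per the submitters' processing notes; their versions, the build and the annotation are unstated in the sources used here. The deposited values are FPKM per gene, a unit inferred from the values, since the column sums of 674328 to 739335 differ between libraries. TPM with rows left out was not excluded. Of 344810 rows, only the 53777 Ensembl genes entered, as the 291033 noncoding entries cannot be placed relative to PLAC8.

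The filter (1 FPKM or more in 2 or more libraries) left 12953 genes. Their log2(FPKM + 1) values were fitted in limma 3.58.1 (eBayes with trend) in R 4.3.3. P-values were adjusted by Benjamini-Hochberg over all of them, and 0.05 was the threshold. Counts at 0.10 are given beside it. The pseudocount understates the change of low genes. The fit was tested on simulated data. PLAC8, the gene lists, the threshold of 0.10 and the tests were chosen with earlier results of these data known. Named were PLAC8 and MYC, the 3 genes next in the order, the 6 of smallest distance, every member of lists of up to 14 genes and the 4 members of smallest limma p of the longer list. Some genes that this rule names are not reported here. Any other named gene was picked with its values in view. Of 102 list genes all were matched, by symbol or Ensembl ID. Promoters are from RefSeq. Alternatives were the pseudocount, the filter, 3 scalings, leaving out each library and a replicate block. Protein sequences are not used here.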

Additional observations from a re-analysis of the deposited data

How the results depend on the processing

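The log2 change of PLAC8 kept its direction under all alternatives run and lay between −2.74 (without MYC knockdown replicate 1) and −2.17 (without MYC knockdown replicate 2). Its rank was 3 with a pseudocount of 0.1, 3 among all Ensembl rows and 138 by FPKM difference. Among all Ensembl rows, SNORD3A, listed as a long noncoding RNA, and the antisense gene RP1-261G23.7 came before PLAC8. SNORD3A stood at 64.93, 40.58, 0.51 and 32.51 FPKM in the library order used above. RP1-261G23.7 was at 35.02 FPKM in wild type replicate 1 and listed at 0 in the other libraries. Leaving out 1 library gave ranks from 1 to 6. Limma called 0 genes at 0.05. Among genes with a mean of at least 10 FPKM it called 381 of 7508, and 3 of 62 list members (SNAI2, GADD45A and SQSTM1). With median of ratios scaling it called 308 of 12938 genes and 2 of 87 list members (GADD45A and SQSTM1). In both settings the share of list members was near that of all genes. Without wild type replicate 1 or 2 the count at 0.05 was 0 and 1, and without MYC knockdown replicate 1 or 2 it was 3688 and 3680, with 0 to 32 list members called. Such a fit takes the spread of the single library from the other group. Groups did not overlap for 54 list members. At 0.10, where 1349 genes were called (713 higher, 636 lower), 0 were called with no filter, and 2220 with equal column sums (1640 higher, 580 lower). With median of ratios scaling it was 684 higher and 968 lower. Leaving out 1 library gave 0 to 5443. With the replicate number as a block 723 genes were called at 0.10, 7 of them list members, and 0 at 0.05. HNRNPD, TMEM150C and SNAI1 no longer passed 0.10, and of the 4 genes of autophagosome-lysosome fusion 3 still passed. The log2 change of PLAC8 with the block was −2.46. The labels do not say that numbers pair libraries, and deviations of same-numbered libraries correlated at −0.0059 over genes. Equal column sums moved the median log2 change of all genes from 0.04 to 0.12, and PLAC8 stood at −2.36. The causes were not tested. FPKM do not keep counts, and a count test was not run.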
